A study of Mus musculus with 4 samples.

Results

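The Tgfbi+ fibroblasts are 1 of 15 cell classes that the authors deposited for mouse alveolospheres, which are organoid co-cultures of alveolar type 2 (AT2) cells and PDGFRα+ lung fibroblasts. The members were all cells carrying that deposited class name, which matched a single deposited cluster, number 16. They were 1378 of 45936 cells in the series and 1378 of 36116 cells in its 11 fibroblast classes, with smooth muscle cells (SMC), EMT-like and unknown mesenchymal cells counted among the fibroblasts. In the knockdown (KD) group the AT2 cells were wildtype and YAP and TAZ were knocked down in the PDGFRa-expressing fibroblasts. In the control group the labels give the cells as wildtype. Both groups received 3 µg/ml doxycycline from day 7 and were collected on day 14, and both held AT2 cells chosen by LysoTracker uptake. Each group had 2 libraries, called biological replicates in the labels. Whether they came from separate animals or separate wells is not stated, so a p-value here reflects library-to-library spread, part of which may be technical.

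Nearly all members came from the knockdown libraries. Knockdown libraries 1 and 2 held 931 and 404 of them, and control libraries 1 and 2 held 5 and 38. They made up 12.5% of the fibroblasts of knockdown library 1 and 7.89% in knockdown library 2 (exact binomial 95% intervals 11.7 to 13.2% and 7.16 to 8.66%). These counts say only where the members come from, because the class was made by clustering these cells and genes high in it differ between the groups. For the same reason the class is set against the other fibroblasts as a description within the knockdown libraries, without a test. The other 10 fibroblast classes gave 6541 and 4719 cells there.

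Fibroblasts of the alveolar niche make the matrix on which AT2 cells sit and send them Wnt, BMP and growth factor signals. YAP and TAZ are paralogous co-activators that enter the nucleus when the Hippo kinases are inactive and act mainly through TEAD factors. Tgfbi encodes a secreted matrix protein induced by TGF-beta, Mmp9 a secreted gelatinase, Bmp2 and Bmp7 BMP ligands, and Dkk2 a secreted modulator of the Wnt co-receptor Lrp6. These 5 genes served as the markers of the class. In GENCODE M21 (GRCm38) each is a protein-coding gene. Tgfbi lies at chr13:56609523-56639562 on the plus strand and Mmp9 at chr2:164940780-164955850 on the plus strand. Bmp2 lies at chr2:133552159-133562885 on the plus strand, Bmp7 at chr2:172868012-172940321 on the minus strand and Dkk2 at chr3:132085292-132180304 on the plus strand.

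The upstream sequences of Tgfbi and Dkk2 are shown because the RefSeq promoter table (GRCm38.p6) holds these 2 of the 5 marker genes. Both are on the plus strand, written 5′ to 3′, and capitals mark a TATAAA match. The Tgfbi window, chr13:56609336-56609522, was stopped before the gene start that GENCODE gives. The Dkk2 window is chr3:132085042-132085291.
Tgfbi: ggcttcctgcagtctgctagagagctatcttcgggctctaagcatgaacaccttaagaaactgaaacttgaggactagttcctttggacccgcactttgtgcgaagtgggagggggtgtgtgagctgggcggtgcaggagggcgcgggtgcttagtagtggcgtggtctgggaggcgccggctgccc
Dkk2: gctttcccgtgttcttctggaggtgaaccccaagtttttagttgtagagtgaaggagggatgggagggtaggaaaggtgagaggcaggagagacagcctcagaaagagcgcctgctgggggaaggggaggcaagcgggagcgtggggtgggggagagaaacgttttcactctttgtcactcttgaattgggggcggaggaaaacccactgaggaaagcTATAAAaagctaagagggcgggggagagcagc
The Dkk2 match begins 32 bases before the gene start. On both strands of these windows, of 187 bases for Tgfbi and 250 for Dkk2, neither gene held GGAATG (TEAD), CTTTGA (TCF/LEF), TGANTCA (AP-1) or the CArG box of serum response factor. Over the 250 bases before the start, of the 149 promoters found for the 207 genes that were at least 2-fold higher in the class (defined below), 12.1% held the TEAD letters and 12.8% the TCF/LEF letters. Over all 27025 genes in the table the shares were 12.6% and 14.1%, and over the 8203 of them measured here 10.4% and 10.3%. The TATAAA letters were in 7.38% of the 149, 13.0% of all and 6.07% of those measured. The TGANTCA letters were in 7.38% of the 149, 6.87% of all and 4.15% of those measured, and the CArG box in 2.01%, 1.40% and 1.09%. Such matches describe the letters and do not show a bound site.

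The members resembled the other fibroblasts in depth and RNA quality. Their median depth was 4810 and 5942 UMIs (unique molecular identifiers, each counting 1 captured RNA molecule) per cell in knockdown libraries 1 and 2, against 4666 and 5823 in the other fibroblasts. Mitochondrial UMIs had a median share of 26.5 and 19.7% in members and 25.7 and 18.7% in the others. The ATAC doublet enrichment that the authors deposited had medians of 0.636 and 1.09 in the class and 0.618 and 1.06 in the others. Cell barcodes also present in another library were carried by 4.51 and 5.20% of the members and by 4.65 and 5.53% of the others.

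The class carried fibroblast markers at the level of the other fibroblasts. The 7 pan-fibroblast markers, Pdgfra and collagen genes among them, summed to 6472 and 6634 CPM (UMIs of a gene scaled to a common total of UMIs per sum of cells, the usual CPM) in the class and to 6775 and 6518 CPM in the other fibroblasts, and none of the 7 differed by 2-fold. Several lists of markers of other cell types summed higher in the class than in the others in both knockdown libraries. Among them were those of pericytes, endothelium, Schwann cells, smooth muscle and chondrocytes, while the osteoclast and mesothelial lists summed lower. The chondrocyte markers summed to 50.2 and 63.3 CPM in the class, against 40.01 and 49.96 CPM in the others. Ductal myofibroblast genes summed to 74.3 and 69.7 CPM in the class, against 49.9 and 46.9 CPM, while alveolar and adventitial fibroblast genes summed lower. The 5 pericyte markers summed to 125 and 222 CPM in the class, against 106 and 135 CPM in the others. Cspg4, the only 1 of them 2-fold higher, gave 40.9 and 80.9 CPM of that class sum. Of the 3 pericyte markers abundant enough to compare, 2 had a mean log2 ratio above 0. The 5 Schwann and glial markers summed to 25.3 and 26.6 CPM in the class, against 14.8 and 19.4 CPM in the others. The 7 endothelial markers summed to 15.8 and 16.1 CPM in the class, against 10.0 and 11.6 CPM. Kdr alone gave 9.65 and 11.2 CPM of that class sum, and S100b 22.4 and 22.1 CPM of the Schwann and glial one. Sox9 gave 49.2 and 60.7 CPM of the chondrocyte one. The endothelial, the Schwann and glial and the chondrocyte class sums thus rest largely on 1 gene each. The part of these markers in the results was not tested. The 13 macrophage and leukocyte markers summed to 63.7 and 40.5 CPM in the class, against 63.9 and 47.3 CPM in the others. The 9 AT2 markers summed to 2443 and 1287 CPM in the class, against 2413 and 1258 CPM in the others, and were at 46243 and 47798 CPM in AT2 cells. The 7 smooth muscle markers summed to 586 and 745 CPM in the class, against 1930 and 8346 CPM in the knockdown SMC class of 48 and 5 cells and 362 and 615 CPM in the summed others. The 5 airway secretory markers differed between the libraries in the same way inside and outside the class, with 0.772 and 318 CPM in the class and 1.18 and 254 CPM in the others.

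All 5 marker genes were higher in the class than in the summed other fibroblasts in both knockdown libraries. Mmp9 reached 828 and 1020 CPM in the class, against 148 and 168 CPM in the others. Tgfbi reached 564 and 482 CPM in the class, against 120 and 89.9 CPM in the others. Dkk2 reached 210 and 303 CPM in the class, against 28.8 and 34.6 CPM in the others. The BMP ligands were less abundant, Bmp2 with 36.5 and 51.7 CPM in the class against 6.10 and 6.60 CPM, and Bmp7 with 32.2 and 55.8 CPM in the class against 6.33 and 5.47 CPM. These genes were the markers chosen for the class, so the differences are a description only.

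The 5 markers differed in how well they set the class apart from its nearest class. For Tgfbi, Bmp2 and Bmp7 that class was the myofibroblast-like one (Myofib-like), which held 618 and 478 knockdown cells. Tgfbi stood at 523 and 384 CPM in Myofib-like cells, close to the level in the class. Bmp7 was at 32.8 CPM in the Myofib-like cells of knockdown library 1, slightly above the class, and at 14.7 CPM in those of library 2. Bmp2 was at 32.5 and 18.1 CPM in Myofib-like cells. For Mmp9 the next class was the Wnt4+ fibroblasts with 481 and 592 CPM, and Mmp9 was at 181 and 149 CPM in Myofib-like cells. Dkk2 was lower in every other class with at least 50 knockdown cells, with 80.5 and 39.9 CPM in Myofib-like cells and 115 CPM in the cycling fibroblasts of library 2. The small knockdown SMC class gave 650 and 61.6 CPM of Tgfbi, the lower value from 2 UMIs. Wnt4 itself, a Wnt ligand, was at 149 and 168 CPM in the class, against 61.2 and 86.0 CPM in the others. Those others include the 1362 and 971 knockdown cells of the Wnt4+ fibroblasts, the class named for this gene.

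**Figure D1:**
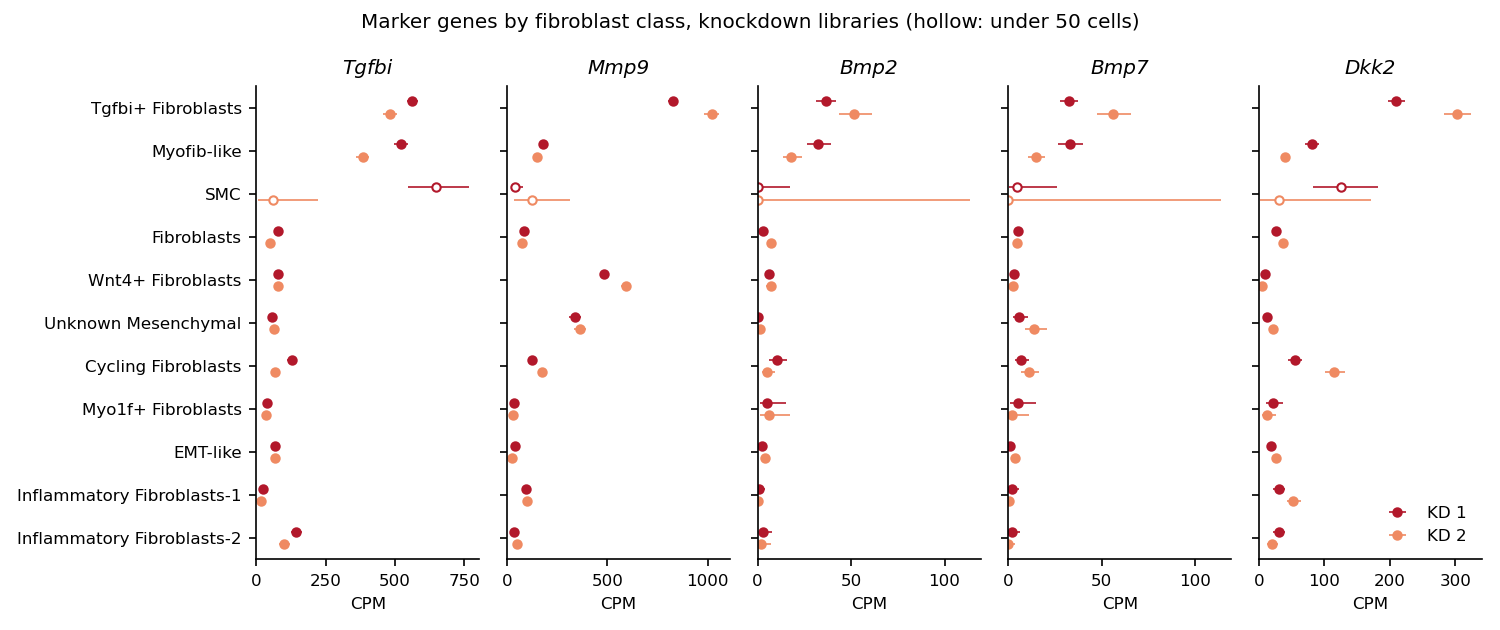
Level of each marker gene in CPM (x axis) in the 11 fibroblast classes (rows) of knockdown libraries 1 and 2; bars are exact Poisson 95% intervals that cover counting error only, and hollow points are classes under 50 cells. Tgfbi in Myofib-like cells (523 and 384 CPM) lies near the Tgfbi+ class, while Dkk2 and Mmp9 lie apart from every other class of at least 50 cells.

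Among the cells of the class the markers were spread unevenly. After each cell was thinned to 2000 UMIs, which kept 919 and 400 members, a Tgfbi UMI was found in 46.8 and 41.0% of members, against 38.1 and 31.3% of Myofib-like cells and 14.0 and 11.2% of all other fibroblasts. Mmp9 was found in 35.4 and 41.8% of members and in 17.8 and 18.7% of the others. Dkk2 was found in 27.5 and 34.8% of members and 4.03 and 3.89% of the others. Bmp7 was found in 6.31 and 8.25% of members against 1.03 and 1.11% of the others, and Bmp2 in 4.35 and 7.00% of members against 0.889 and 0.962%. AT2 cells, with median depths of 5970 and 6621 UMIs before thinning, served as cells outside the fibroblast lineage, and the shares there were 9.18 and 4.93% for Tgfbi, 7.45 and 5.09% for Mmp9 and 1.90 and 1.31% for Dkk2. Without thinning the shares in members were 63.3 and 59.4% for Tgfbi, 48.7 and 56.2% for Mmp9 and 49.6 and 60.4% for Dkk2.

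At that depth 34.4 and 38% of the members held UMIs of at least 2 of the 5 markers. The share was 14.4 and 8.82% in Myofib-like cells, 5.84 and 6.70% in Wnt4+ fibroblasts, 4.62 and 4.00% in all other fibroblasts and 1.57 and 0.493% in AT2 cells. No UMI of any marker was seen in 24.4 and 19.8% of the members. The class held 40.6 and 31.7% of all fibroblast UMIs of Tgfbi in knockdown libraries 1 and 2, 45.0 and 34.4% of Mmp9, 51.6 and 43.1% of Dkk2, 46.6 and 40.4% of Bmp2 and 42.6 and 46.9% of Bmp7. It held 12.7 and 7.95% of all fibroblast UMIs.

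**Figure D2:**
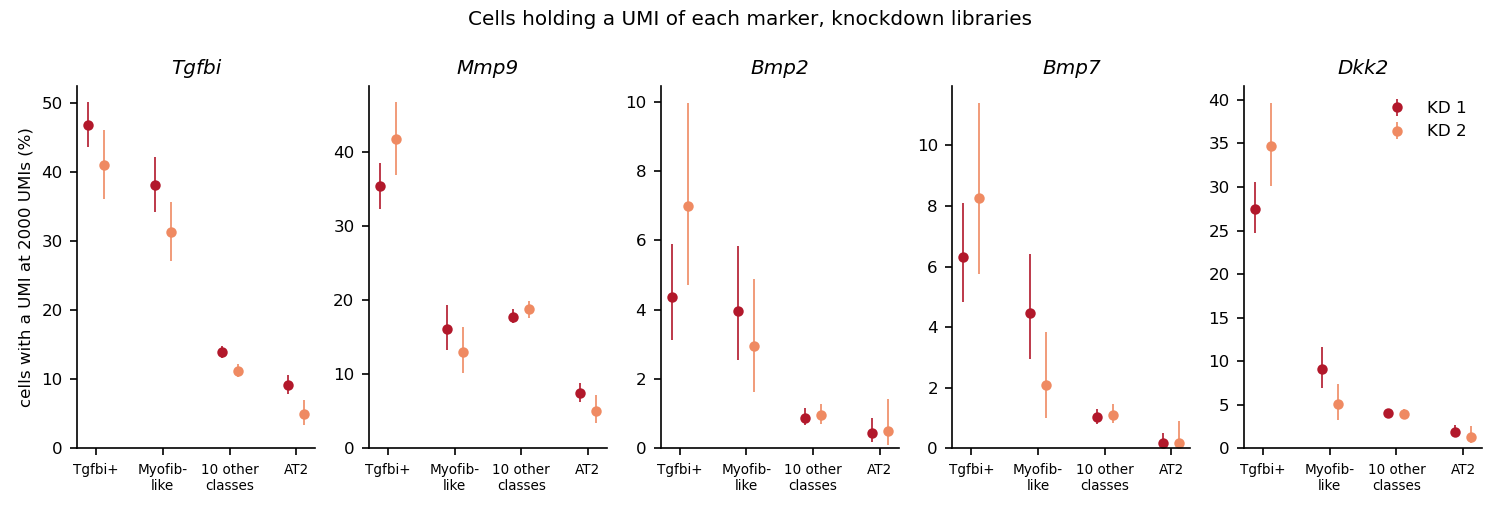
Share of cells (y axis, %) with at least 1 UMI of each marker after thinning to 2000 UMIs, in the Tgfbi+ class, Myofib-like cells, all 10 other fibroblast classes and AT2 cells of knockdown libraries 1 and 2; bars are exact binomial 95% intervals. Tgfbi and Dkk2 separate the class from AT2 cells by far more than the intervals.

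Across genes, 10294 had a mean of at least 5 CPM over the class and the other fibroblasts in both knockdown libraries, and ratios were taken with 0.5 CPM added. Of these, 207 (2.01%) were at least 2-fold higher in the class in both libraries and 237 (2.30%) at least 2-fold lower. The ratios in the 2 libraries had a Pearson r of 0.850 across genes, which are not independent, as a description. Against Myofib-like cells alone, on the same genes, 177 (1.72%) were higher and 163 (1.58%) lower. These were in part the same genes. Among 10233 genes that passed the minimum in that comparison, 165 were 2-fold higher and 186 lower. Of the 207 genes, 75 were again 2-fold higher, and of the 237 genes 78 again 2-fold lower. Of the 207 higher genes, 150 were above every other class of at least 50 cells in both libraries and 25 were at least 2-fold above every such class. The class itself varied more between the knockdown libraries than the others did: 81 genes (0.787%) differed 2-fold between the libraries in the class and 11 (0.107%) in the summed others, which held more cells.

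**Figure D3:**
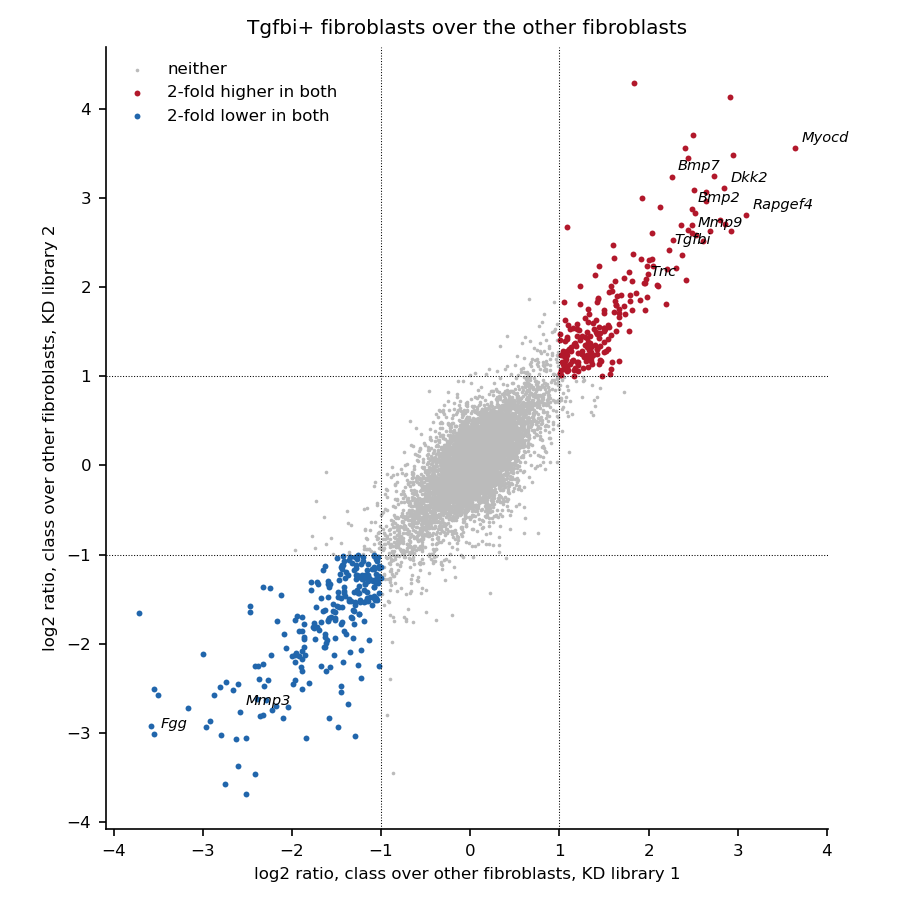
Log2 ratio of the Tgfbi+ class over the summed other fibroblasts for 10294 genes in knockdown library 1 (x axis) and library 2 (y axis); dotted lines mark 2-fold. The 207 red genes are higher in both libraries and the 237 blue genes lower in both.

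The gene with the largest ratio was Myocd, which encodes myocardin, a co-activator of serum response factor that drives smooth muscle genes. It had 71.2 and 46.8 CPM in the class, against 5.23 and 3.53 CPM in the other fibroblasts and 5.05 and 5.11 CPM in Myofib-like cells. The class held 66.5 and 53.4% of all fibroblast Myocd UMIs. Higher levels, 204 and 185 CPM, stood in the knockdown SMC class, from 44 and 6 UMIs. After thinning, Myocd was found in 12.9 and 7.00% of members and in 0.952 and 0.577% of the other fibroblasts.

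Other genes with large ratios encode signalling proteins, receptors and enzymes. Rapgef4, which encodes the cAMP-activated exchange factor EPAC2, had 137 and 94.4 CPM in the class, against 15.7 and 13.0 CPM in the others. Robo2, a receptor for the guidance protein Slit, had 152 and 129 CPM in the class, against 26.1 and 17.7 CPM in the others and 362 and 123 CPM in the small SMC class. Nes, an intermediate filament gene, had 76.0 and 90.3 CPM in the class, against 11.4 and 14.1 CPM in the others. Ramp1, a subunit of the receptor for calcitonin gene-related peptide, had 85.1 and 87.3 CPM in the class, against 14.8 and 13.0 CPM in the others.

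Further genes of this group were Slc24a2, a sodium-calcium-potassium exchanger, with 47.6 and 59.2 CPM in the class against 5.85 and 9.19 CPM, and Gatm, the enzyme of creatine synthesis, with 18.7 and 24.7 CPM against 2.05 and 0.938 CPM. Ggct, an enzyme of glutathione breakdown, had 91.4 and 220 CPM in the class, against 21.9 and 35.8 CPM, and so differed between the libraries by more than 2-fold within the class. Cadm1, a cell adhesion gene, had 76.4 and 87.3 CPM in the class, 48.0 and 48.4 CPM in Myofib-like cells and 11.8 and 10.7 CPM in all others. Tnfrsf11b, which encodes osteoprotegerin, a decoy receptor for RANKL, had 18.3 and 25.1 CPM in the class, against 2.50 and 2.56 CPM. All 20 genes with the largest ratios were higher in the class than in every other class of at least 50 cells when averaged over the knockdown libraries. In the small knockdown SMC class Fam189a1, Myocd, Nes, Robo2 and St6galnac3 had a higher mean level than in the Tgfbi+ class.

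**Figure D4:**
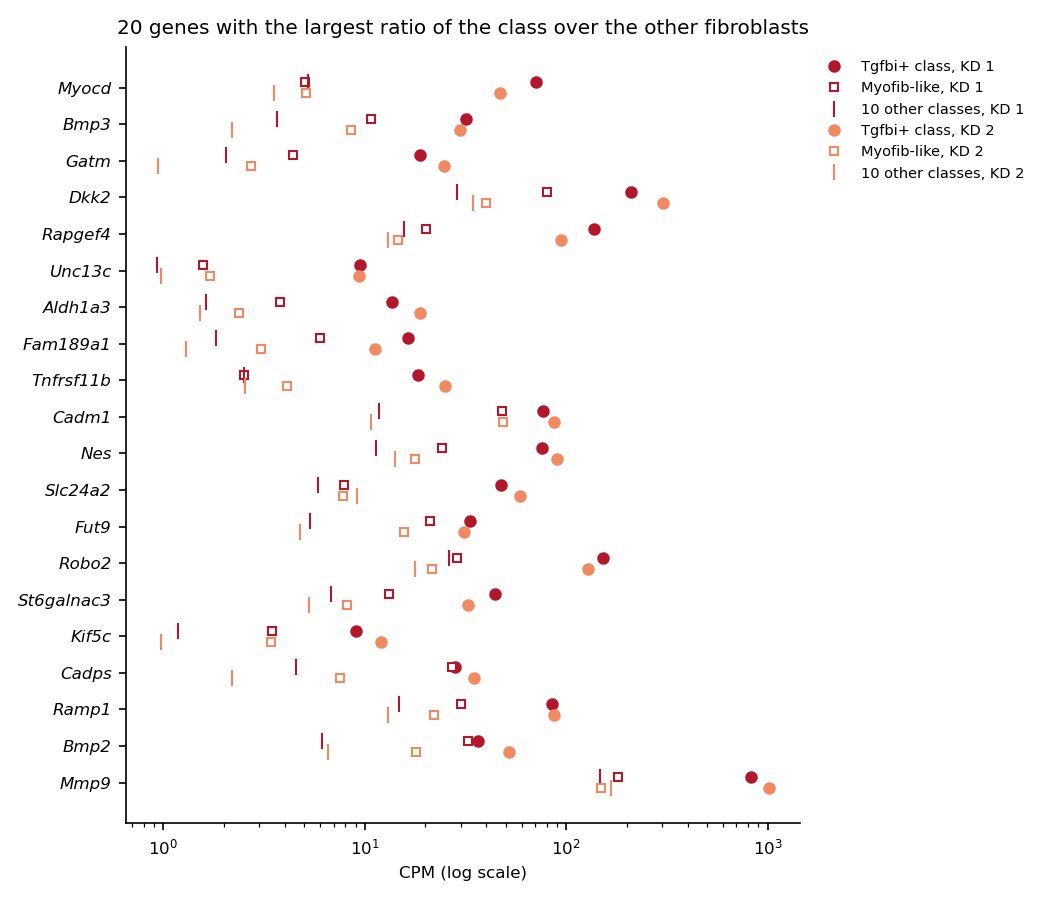
Levels in CPM (x axis, log scale) of the 20 genes with the largest ratio of the Tgfbi+ class over the other fibroblasts (rows, largest at the top), in the class (filled circles), Myofib-like cells (open squares) and the 10 other classes summed (ticks) of each knockdown library. Myocd, Rapgef4 and Robo2 in Myofib-like cells lie near the level of all others, while Cadm1 in Myofib-like cells (48.0 and 48.4 CPM) lies nearer to the class.

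Among the genes with the smallest ratios were the fibrinogen and some matrix genes. The fibrinogen genes Fga, Fgb and Fgg had 0.965 to 3.47 CPM in the class, Fgb with 1.54 and 1.5 CPM against 24.0 and 14.7 CPM in the others. Mmp3, which encodes the matrix-degrading enzyme stromelysin, had 65.6 and 54.0 CPM in the class, against 396 and 369 CPM in the others. Abi3bp, a matrix protein gene, had 36.3 and 28.9 CPM in the class, against 278 and 213 CPM. These levels were highest in EMT-like or inflammatory fibroblasts, Abi3bp with 663 and 619 CPM in EMT-like cells.

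Of the BMP ligands, 3 of the 6 measured were higher in the class, Bmp2, Bmp3 and Bmp7, and Gdf10 was lower. Bmp3, which antagonises other BMPs, had 31.6 and 29.6 CPM in the class, against 3.68 and 2.20 CPM in the others. Gdf10 had 8.49 and 6.37 CPM in the class, against 51.0 and 56.6 CPM. The median log2 ratio of the ligands was 1.66, against 0.07 over all genes measured, and Bmp2 and Bmp7, being markers of the class, help to set it. In the family counts that follow, the share over all genes was 2.01% higher and 2.30% lower, and a count of 0 or 1 in a short list is near that share. Among 7 secreted BMP antagonists only Fst, the gene of follistatin, was higher, with 481 and 591 CPM against 207 and 284 CPM, and only Bmper was lower. No BMP receptor (6 measured) and no BMP target gene (7 measured) differed by 2-fold, and the targets had a median log2 ratio of -0.22.

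Members of the Wnt lists went both ways. Of 8 secreted Wnt antagonists, Dkk2, a marker of the class, and Notum, which encodes a lipase that inactivates Wnt proteins, were higher. Sfrp1, Sfrp2 and Sfrp4, which encode Wnt-binding proteins, were lower. Sfrp1 had 663 and 606 CPM in the class, against 1675 and 1738 CPM in the others, but 535 and 633 CPM in Myofib-like cells. The direction also turned for Sfrp2 against Myofib-like cells alone (log2 ratio 0.98) and for Sfrp4 against Fibroblasts alone (0.87). Of 9 ligands and R-spondins, Wnt2 and Wnt11 were higher, with 26.6 and 39.7 CPM of Wnt11 in the class against 7.39 and 8.44 CPM. Rspo1, Rspo2 and Rspo3, which amplify Wnt signals, were lower, with 9.84 and 9.37 CPM of Rspo3 in the class against 31.1 and 38.8 CPM, but Rspo2 turned against Myofib-like cells alone (0.36). Of 9 Wnt/β-catenin target genes, 3 were higher, Lef1, Tcf7 and Apcdd1, none was lower, and all 9 had a mean log2 ratio above 0, against 61.5% of all genes measured. Lef1, which encodes a nuclear partner of β-catenin, had 54.8 and 55.1 CPM in the class, 22.7 and 19.4 CPM in Myofib-like cells and 9.64 and 8.41 CPM in all others.

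Matrix genes differed more by member than by family. Tnc, the gene of tenascin C, had 3557 and 4466 CPM in the class, against 920 and 1078 CPM in the others and 1828 and 1754 CPM in Myofib-like cells. Of 14 matrix glycoprotein genes Tgfbi, Tnc and Postn were higher and Spon2, Fbln1 and Fbln2 lower. Tgfbi is a marker of the class, and Spon2 turned against Myofib-like cells alone (log2 ratio 0.49). Spp1, the gene of osteopontin, was not 2-fold different, with 12887 and 17310 CPM in the class against 21444 and 26228 CPM. Of 11 elastic fibre genes and lysyl oxidases 3 were higher, Eln, Fbn2 and Mfap5. Eln, the gene of elastin, had 790 and 814 CPM in the class, against 305 and 268 CPM. Of 19 collagen genes Col5a3 and Col7a1 were higher and Col13a1 lower, though not against Myofib-like cells alone (0.047). Of 9 matrix metalloproteinases Mmp9, a marker of the class, was higher and Mmp3 lower. Of 4 metalloproteinase inhibitors Timp3 was higher, with 474 and 608 CPM against 115 and 122 CPM.

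None of 13 contractile genes was 2-fold higher, although all 13 had a mean log2 ratio above 0, with a median of 0.34, against 61.5% of all genes above 0 and a median of 0.07. Acta2, the gene of smooth muscle actin, had 297 and 427 CPM in the class, 93.7 and 128 CPM in Myofib-like cells and 189 and 326 CPM in all others. Of 8 inflammatory fibroblast genes 5 were lower, Saa3, Cxcl12, Cxcl1, Cxcl5 and Il6, and none higher, with a median log2 ratio of -1.69. The summed others include the inflammatory fibroblast classes, which lowers such ratios. The direction turned for none of the 5 against Myofib-like cells or Fibroblasts alone. Cxcl12, a chemokine gene, had 62.7 and 74.2 CPM in the class, against 213 and 262 CPM. Of 10 G2/M genes Top2a, Cenpe and Kif11 were lower than in the summed others, which include the cycling fibroblasts. Against Myofib-like cells alone the log2 ratio was 0.60 for Cenpe and 0.33 for Kif11, and against Fibroblasts alone 0.18 and 0.14. A UMI of Mki67 or Top2a was found in 1.85 and 2.75% of thinned members, against 3.47 and 2.94% of Myofib-like cells, 2.39 and 2.62% of Fibroblasts, 2.88 and 1.57% of Wnt4+ fibroblasts and 58.7 and 66.8% of cycling fibroblasts.

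Growth factor genes were mixed. Of 7 EGF family genes Hbegf and Btc, which encode ligands of the EGF receptor, were higher and Ereg lower, though Ereg turned against Myofib-like cells alone (log2 ratio 0.28). Hbegf had 77.4 and 87.3 CPM in the class, against 19.4 and 20.2 CPM in the others. Fgf7 and Fgf10, ligands that act on epithelium, were lower, with 72.9 and 64.1 CPM of Fgf10 in the class, against 183 and 211 CPM. They were 2 of 7 FGF and HGF signal and receptor genes measured. The other 5 were not 2-fold different, and the median log2 ratio of the 7 was 0.005. Pdgfc was higher, with 15.6 and 17.2 CPM in the class, against 3.94 and 4.14 CPM in the others, but 15.1 and 11.6 CPM in Myofib-like cells. The endothelial receptor gene Kdr was higher, with 9.65 and 11.2 CPM in the class against 1.72 and 2.85 CPM, and is part of the endothelial sum given above.

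The targeted genes differed by less than 2-fold between the class and the others. Yap1 had 35.1 and 31.5 CPM in the class, against 40.0 and 37.1 CPM in the other fibroblasts. Wwtr1, the gene of TAZ, had 217 and 177 CPM in the class, against 182 and 172 CPM. None of 17 Hippo pathway genes differed by 2-fold, and of 20 YAP/TAZ target genes only Igfbp3 did, with 107 and 109 CPM in the class against 43.5 and 42.4 CPM. These counts are near the 2.01% and 2.30% of all genes.

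The profile of the class was closest to several classes at once. Over the 10294 genes the Spearman rho with the class in the same knockdown library was 0.952 and 0.944 for Myofib-like cells, 0.951 and 0.937 for the class named Fibroblasts and 0.944 and 0.935 for Wnt4+ fibroblasts. Against control SMC (724 and 753 cells) it was 0.948 and 0.954 for the members of knockdown library 1 and 0.920 and 0.937 for those of library 2. These values are a description, and they move with the cell number behind each profile. Of the 207 genes higher in the class, 90 (43.5%) had their highest control level in Myofib-like cells and 90 (43.5%) in SMC. Over all genes measured 15.1% were highest in control Myofib-like cells and 14.2% in control SMC. Of the 237 lower genes, 94 (39.7%) were highest in control EMT-like cells and 43 (18.1%) in control inflammatory fibroblasts-2, against 7.01% and 5.98% of all genes measured.

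The leading genes sat in different control classes. Myocd was at 122 and 114 CPM in control SMC and at 14.0 and 15.2 CPM in control Myofib-like cells. Robo2 was at 426 and 432 CPM in control SMC and at 144 and 117 CPM in control Myofib-like cells. Tnfrsf11b was at 22.8 and 18.7 CPM in control Myofib-like cells and at 6.34 and 5.91 CPM in control SMC. Dkk2 was at 104 and 103 CPM in control Myofib-like cells and at 70.1 and 76.5 CPM in control SMC. Gatm stayed at or below 2.07 CPM in both classes of both control libraries, and Slc24a2 at or below 2.22 CPM.

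The members in the control libraries gave few UMIs, so their levels are given with exact Poisson 95% intervals and without folds. Their cells held 26814 and 148940 UMIs, against 5183854 and 2668583 in the knockdown libraries. Dkk2 was at 298 and 275 CPM there, from 8 and 41 UMIs, with intervals of 129 to 588 and 198 to 373 CPM, and Tgfbi at 261 and 792 CPM, from 7 and 118 UMIs, with intervals of 105 to 538 and 656 to 949 CPM. Mmp9 had 0 and 2 UMIs, and Slc24a2 and Gatm had 0 in both control libraries, for which the interval reaches 24.8 CPM in control library 2.

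Knockdown and control could not be tested inside the class, with its 5 and 38 control cells, and the comparison was made in fibroblasts outside it. Counts were summed per library over the 10 other classes and tested with edgeR's quasi-likelihood test with Benjamini-Hochberg adjustment; levels are then CPM after TMM normalisation. Of 17383 genes 787 (4.53%) rose and 1117 (6.43%) fell at an adjusted p under 0.05. Yap1 fell to 41.7 and 36.9 CPM in the knockdown libraries, against 61.2 and 64.8 CPM in the controls (log2 fold change -0.68 ± 0.11 SE, edgeR adjusted p = 0.0097), a call lost without knockdown library 2 (adjusted p = 0.070). Wwtr1 was at 190 and 171 CPM in the knockdown and 239 and 230 CPM in the control libraries, with a log2 fold change of -0.38 ± 0.13 (SE, edgeR adjusted p = 0.097). The genes named below were chosen for their ratio over these same knockdown sums, so their values in both comparisons share those libraries and are set side by side only.

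Of the 5 markers, Mmp9 was called in the sums outside the class and the other 4 were not, although Dkk2 rose in 5 of the 7 classes in which it could be tested alone. Mmp9 had 154 and 167 CPM in the knockdown libraries, against 6.01 and 8.61 CPM in the controls (log2 fold change 4.46 ± 0.18 SE, edgeR adjusted p = 3.4e-05), and it rose in each of the 8 classes that could be fitted alone. In those classes the share of all genes that rose was 3.39% in Myofib-like cells, 3.81% in Fibroblasts, 3.02% in EMT-like cells, 1.15% in cycling fibroblasts, 1.15% in inflammatory fibroblasts-1, 1.40% in inflammatory fibroblasts-2, 1.28% in Myo1f+ fibroblasts and 0.593% in unknown mesenchymal cells. The share that fell was 3.95% in Myofib-like cells, 4.42% in Fibroblasts, 3.22% in EMT-like cells, 1.16% in cycling fibroblasts, 1.39% in inflammatory fibroblasts-1, 1.16% in inflammatory fibroblasts-2, 1.20% in Myo1f+ fibroblasts and 0.718% in unknown mesenchymal cells. Dkk2 had 30.0 and 34.4 CPM in the knockdown and 24.5 and 26.3 CPM in the control libraries, with a log2 fold change of 0.34 ± 0.12 (SE, edgeR adjusted p = 0.099). It passed the threshold when each class was weighted equally (0.78, adjusted p = 0.015) and without the Wnt4+ class (0.51, adjusted p = 0.040). Tgfbi had 125 and 89.4 CPM in the knockdown and 83.3 and 105 CPM in the control libraries, with overlapping groups. Bmp2 and Bmp7 differed by log2 0.05 and 0.01. With the class included in the sums, the log2 fold changes were 1.08 for Dkk2, 0.71 for Bmp2 and 0.67 for Bmp7 (edgeR adjusted p = 0.0018, 0.013 and 0.017), in a fit where 4.42% of 17481 genes rose and 6.22% fell. The class added 12.7 and 7.95% of the fibroblast UMIs in the knockdown libraries, but 0.0495 and 0.272% in the controls. As these 3 genes are its markers, adding it raises them by the way it was made. Their values here are a description, and the p-values are no support.

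The leading genes of the class went both ways outside it. Slc24a2 rose to 6.09 and 9.14 CPM in the knockdown libraries, against 0.769 and 0.768 CPM in the controls (log2 fold change 3.30 ± 0.24 SE, edgeR adjusted p = 0.00059). Ggct (1.58) and Wnt4 (1.24) also rose, as did Rapgef4 (0.99), whose call was lost with each class weighted equally (edgeR adjusted p = 0.081). Robo2 fell to 27.2 and 17.6 CPM in the knockdown libraries, against 66.7 and 69.1 CPM in the controls (log2 fold change -1.60 ± 0.19 SE, edgeR adjusted p = 0.0030). Myocd fell to 5.45 and 3.51 CPM in the knockdown libraries, against 12.2 and 11.6 CPM in the controls (log2 fold change -1.40 ± 0.20 SE, edgeR adjusted p = 0.0057), but not with each class weighted equally (-0.50, adjusted p = 0.29). The class left out of these sums held 66.5 and 53.4% of fibroblast Myocd UMIs in the knockdown libraries and 0 and 1.56% in the controls. With it included, and before TMM, Myocd was at 13.6 and 6.97 CPM in the knockdown and 12.6 and 11.7 CPM in the control libraries. With the class included the 2 groups thus overlapped. Neither the part of leaving it out in the fall nor that of the SMC cell numbers, given next, was tested. SMC were 48 and 5 of the knockdown cells and 724 and 753 of the control cells in the sums outside the class. There the 7 smooth muscle markers summed to 362 and 615 CPM in the knockdown and 576 and 826 CPM in the control libraries. In the same sums the 13 macrophage markers were at 63.9 and 47.3 CPM in the knockdown and 21.5 and 18.6 CPM in the control libraries, and the AT2 markers at 2413 and 1258 CPM in the knockdown and 857 and 914 CPM in the control libraries. Their part in these results was not tested.

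Within single classes, the knockdown effect on Dkk2 and Rapgef4 differed between Myofib-like cells and the class named Fibroblasts. The test was added after the data had been seen and called 669 of 14423 genes (4.64%). Both genes were chosen for a high level in the Tgfbi+ class, which held 931 and 404 knockdown but 5 and 38 control cells. Its line to the Myofib-like class was drawn by clustering these same cells. The differences therefore depend on where that line fell and are a description. Within Myofib-like cells 430 of 12695 genes (3.39%) rose and 501 (3.95%) fell, and within the class named Fibroblasts 555 of 14572 (3.81%) rose and 644 (4.42%) fell. Dkk2 rose within Fibroblasts, to 27.1 and 35.8 CPM in the knockdown libraries against 10.4 and 8.31 CPM in the controls, and was at 84.6 and 39.9 CPM in knockdown against 101 and 102 CPM in control Myofib-like cells. The log2 difference between these effects was -2.44 (edgeR interaction, adjusted p = 9.7e-06). Rapgef4 rose within Fibroblasts, to 15.7 and 13.3 CPM in the knockdown libraries against 1.39 and 1.42 CPM in the controls, and was at 21.2 and 14.7 CPM in knockdown against 29.0 and 21.5 CPM in control Myofib-like cells, a log2 difference of -3.84 (edgeR interaction, adjusted p = 1.3e-08).

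Several genes that led the class fell within Myofib-like cells. Robo2 fell there to 30.2 and 21.5 CPM in the knockdown libraries, against 141 and 115 CPM in the controls (log2 fold change -2.31 ± 0.19 SE, edgeR adjusted p = 9.7e-07). Nes fell to 25.5 and 17.7 CPM in knockdown, against 63.2 and 57.8 CPM in control Myofib-like cells (-1.48 ± 0.18 SE, edgeR adjusted p = 8.5e-05). Myocd fell to 5.31 and 5.11 CPM in knockdown, against 13.7 and 15 CPM in control Myofib-like cells (-1.46 ± 0.27 SE, edgeR adjusted p = 0.0028). Tnfrsf11b, Aldh1a3 and Unc13c fell there by 2.59, 2.28 and 2.00 on the log2 scale (edgeR adjusted p = 3.3e-05, 0.00019 and 0.0061). Tgfbi rose within Myofib-like cells (0.91, edgeR adjusted p = 0.0075) and within Fibroblasts (0.82, adjusted p = 0.032), but neither call held without knockdown library 1 (adjusted p = 0.10 and 0.15). The line between the Tgfbi+ and the Myofib-like class was drawn by clustering these same cells, so a level within Myofib-like cells depends on where it fell.

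For that reason the Tgfbi+, Myofib-like and SMC classes were also summed in each library, a fit added after the data had been seen. Of 13885 genes 401 (2.89%) rose and 461 (3.32%) fell. Values of genes chosen for a high level in the class are given from it as a description, because nearly all members are knockdown cells. Myocd was at 52.5 and 25.8 CPM in the knockdown sums, against 43.4 and 46.7 CPM in the control sums, with overlapping groups. Nes, with 59.2 and 52.8 CPM in the knockdown and 54.8 and 50.1 CPM in the control sums, and Cadm1, with 67.7 and 66.6 CPM against 69.9 and 58.0 CPM in the control sums, overlapped too. These sums hold 48 and 5 SMC in the knockdown and 724 and 753 in the control libraries, and control SMC carried 426 and 432 CPM of Robo2. Robo2 was lower, with 117 and 72.6 CPM in the knockdown sums against 218 and 217 CPM in the control sums.

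The markers were higher in the knockdown sums of these 3 classes. Mmp9 had 596 and 559 CPM in the knockdown sums, against 17.4 and 23.6 CPM in the control sums. Dkk2 had 168 and 164 CPM in the knockdown sums, against 92.2 and 96.3 CPM in the control sums, a log2 fold change of 0.81 ± 0.14 (SE). Tgfbi had 577 and 426 CPM, against 264 and 328 CPM in the control sums (0.76 ± 0.20 SE). Bmp7 had 33.3 and 33.9 CPM, against 18.7 and 18.7 CPM in the control sums (0.84 ± 0.15 SE), and Bmp2 35.7 and 33.7 CPM, against 24.7 and 20.6 CPM in the control sums (0.62 ± 0.15 SE). Slc24a2 stood at 33.4 and 32.0 CPM in the knockdown sums, against 1.75 and 0.971 CPM in the control sums, and Gatm at 13.6 and 13.1 CPM, against 1.85 and 1.36 CPM in the control sums.

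**Figure D5:**
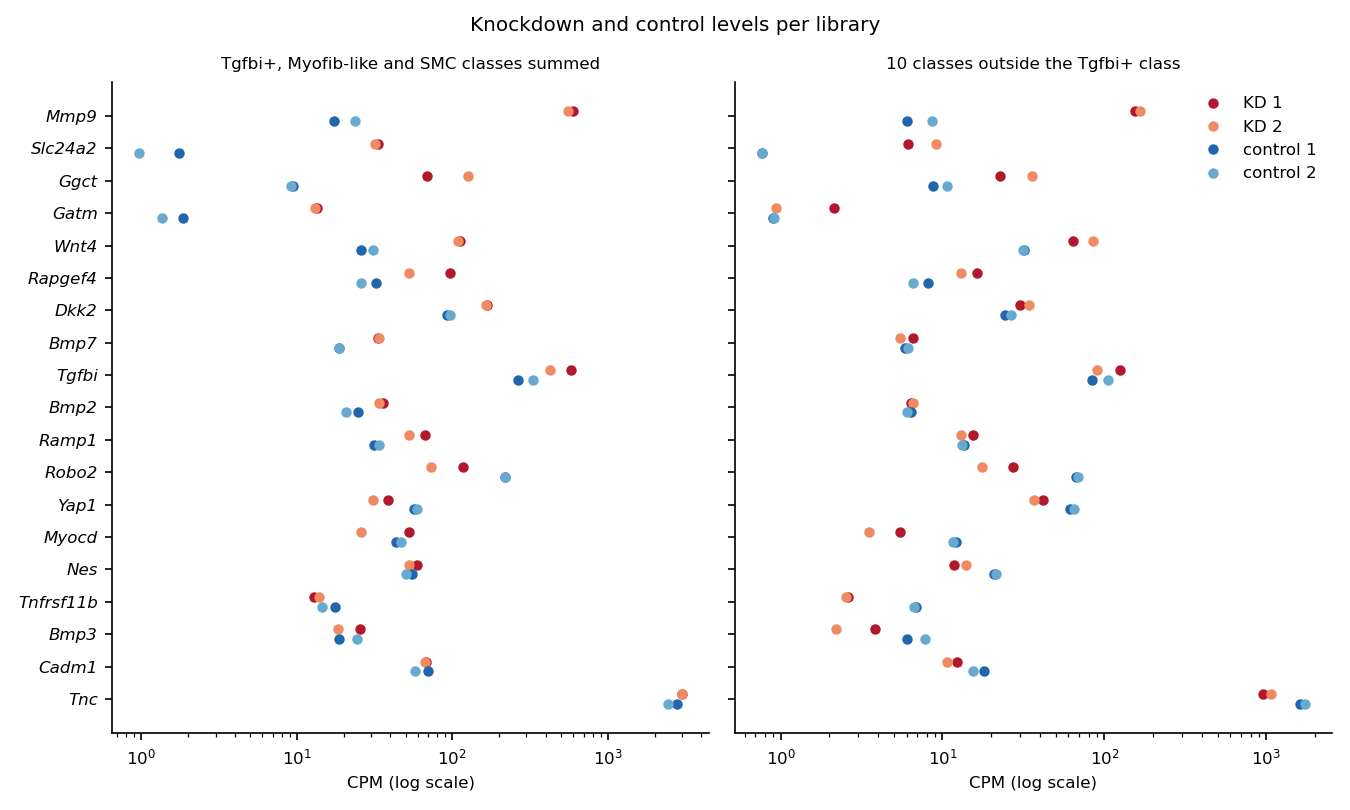
Levels in TMM-normalised CPM (x axis, log scale) of the leading genes (rows) in each knockdown and control library, in the Tgfbi+, Myofib-like and SMC classes summed (left) and in the 10 classes outside the Tgfbi+ class (right). Mmp9 and Slc24a2 are higher in the knockdown libraries in both panels, while the Myocd points overlap on the left (52.5 and 25.8 against 43.4 and 46.7 CPM) and part on the right.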

How the data were processed

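The RNA of cells from 2 knockdown and 2 control libraries was measured with a 10x kit that reads RNA and open chromatin, per the labels' protocols. The authors deposited whole-number UMI counts for 45936 cells and 32285 genes, with cell classes, mitochondrial percent and an ATAC doublet enrichment ratio per cell; a further 50 columns of values per cell were left aside. Per the submitters' processing notes, reads were placed on GRCm38 (mm10). The aligner and whether intronic reads were counted: not given in the sources used here. Deposited cells had at most 35% mitochondrial UMIs. No doublet caller was run.

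Counts were summed per library and class, scaled to CPM and compared as ratios with 0.5 CPM added. Knockdown and control sums were tested with edgeR 4.0.16 (quasi-likelihood, TMM, its default filter on low counts, Benjamini-Hochberg over all genes tested). The difference in effect between Myofib-like cells and Fibroblasts was an interaction with library as a block; it and the 3-class sum were added after the data had been seen. Counts were also simulated with the mean levels and library sizes found outside the class and 1 assumed dispersion for every gene. There 65 of 99 genes changed by log2 1 and 98 of 100 changed by log2 2 were called, and 4 unchanged genes of 17409 tested. The simulation held no difference in class make-up, so it checks the procedure and not the error rate in these libraries. Poisson and binomial intervals cover counting error only.

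Named genes were the 20 with the largest and 10 with the smallest ratio in the library nearer to 0, the 10 farthest above every other class, the 5 markers, Yap1, Wwtr1 and Wnt4, and list members 2-fold higher or lower in both knockdown libraries with up to 4 abundant others. The members and the gene lists were chosen with earlier results of these data known. Gene IDs were matched to GENCODE M21 for 269 of 269 named genes.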

Additional observations from a re-analysis of the deposited data

Results flagged for a closer look

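The knockdown effect differed between Myofib-like cells and the class named Fibroblasts for 10 of 27 named genes tested, which were the genes with the largest ratios, the markers, Yap1, Wwtr1 and Wnt4, against 669 of 14423 genes (4.64%) overall (edgeR interaction, adjusted p under 0.05). Apart from Yap1, Wwtr1 and Wnt4 they were chosen for a high level in the Tgfbi+ class, so the share is no support. Their effects in Myofib-like cells also depend on where clustering drew the line to the Tgfbi+ class. The log2 effect in Myofib-like cells minus that in Fibroblasts was -3.84 for Rapgef4, -3.19 for Slc24a2, -2.44 for Dkk2, -1.89 for Tnfrsf11b, -1.74 for Myocd, -1.64 for Nes, -1.50 for Robo2, -1.14 for Mmp9 and -0.99 for St6galnac3, and 0.70 for Wnt4. Leaving out 1 library at a time kept the direction for all 10, and 5 lost the call at least once, with the highest adjusted p at 0.10 for Myocd without control library 2, 0.058 for Tnfrsf11b without knockdown library 1, 0.15 for Slc24a2 without control library 1, 0.25 for St6galnac3 without control library 1 and 0.17 for Wnt4 without control library 2.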

How the results depend on the processing

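Outside the class 1904 genes changed; the count was 5537 with the replicate number as a block, 455 with each class weighted equally and 937 to 3718 without 1 library. With the class included it was 1860, 5820 with the block and 998 to 3666 without 1 library. In the 3 summed classes it was 862, 2453 with the block and 737 to 1374 without 1 library. Over the classes fitted alone the median count was 302.5, 945.5 with the block and 214.5 to 526.5 without 1 library. The labels do not pair the libraries: deviations of same-numbered libraries had r = 0.22 over 17383 genes, and with only 2 numbers the block was not used. Where a library was left out, the lone library of its group was assumed to vary like the others. The genes 2-fold apart numbered 444, and 221 at a minimum of 20 CPM; TMM factors gave 172 higher and 272 lower, against 207 and 237. The unthinned shares that moved were, for knockdown libraries 1 and 2, 9.34 and 11.4% (Bmp2), 11.9 and 17.6% (Bmp7), 49.6 and 60.4% (Dkk2), 48.7 and 56.2% (Mmp9) and 63.3 and 59.4% (Tgfbi).

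Outside the class the sign turned for 4 named genes, none of them called. Fam189a1 (-0.036) ranged from -0.35 to 0.22 without 1 library: it was 0.19 without control library 1, 0.22 without knockdown library 2, 0.33 with equal weights and 0.044 without the cells highest in UMIs. Ramp1 ranged from -0.045 (without knockdown library 1) to 0.21 without 1 library, and was -0.0067 without the Wnt4+ class. Tgfbi ranged from -0.076 (without knockdown library 1) to 0.42 (without knockdown library 2). Bmp7 ranged from -0.14 (without knockdown library 1) to 0.14 without 1 library, and was -0.019 without control library 1, -0.0062 without EMT-like and unknown mesenchymal cells and -0.013 without the cells highest in UMIs. Named ratios turned against the class named Fibroblasts alone for Wt1 (0.51), Sfrp4 (0.87), Cenpe (0.18), Kif11 (0.14) and Hs6st2 (0.33). Against Myofib-like cells alone they turned for Npnt (1.15), Alpl (0.60), Rspo2 (0.36), Sfrp1 (0.12), Sfrp2 (0.98), Col13a1 (0.047), Spon2 (0.49), Ereg (0.28), Cenpe (0.60), Kif11 (0.33) and Unc5b (-0.15). Calls outside the class were lost at least once for 10 named genes (Aldh1a3, Bmp3, Cadm1, Kif5c, Myocd, Nes, Rapgef4, St6galnac3, Unc13c and Yap1) and gained at least once for 5 (Cadps, Dkk2, Gatm, Tmem132c and Wwtr1). The cause was not tested.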
